A study of Homo sapiens with 13 samples.

Results

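The genes described here are 9 genes of MHC class I antigen presentation, taken by gene symbol from the 23637 genes of the RNA tables and from the peak tables of 3 histone marks. They comprise the heavy chains HLA-B, HLA-C, HLA-E and HLA-F, the light chain B2M, the peptide transporter subunits TAP1 and TAP2, the loading factor TAPBP and the transcriptional activator NLRC5. All 9 were found, and all 9 reached an RPKM (reads scaled to the length of the gene and the depth of the library) of at least 1 in every RNA library.

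The cells were TE-7, an established human line whose labels describe it as epithelium of the esophagus. They received interleukin-13 (IL-13), a cytokine of type 2 inflammation, at 100 ng/ml, and controls without it stood beside them. The RNA groups were IL-13 at 2, 6 and 24 hr and control at 2, 6 and 24 hr, with 1 library each. The chromatin groups were IL-13 for 6 hr and control, with 1 library each for the promoter-associated histone marks H3K4me3, H3K9Ac and H3K27Ac. All libraries came from 1 cell line, so the values describe that line.

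MHC class I molecules carry short peptides from inside the cell to its surface, where CD8 T cells and natural killer cells read them. A heavy chain pairs with beta-2 microglobulin in the endoplasmic reticulum, the TAP1 and TAP2 transporter brings peptides in from the cytosol, and tapasin (TAPBP) holds the empty heavy chain beside the transporter until a peptide binds. In many cell types interferons raise these genes through IRF1 and NLRC5, whereas IL-13 acts mainly through STAT6.

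Stretches of 150 bases of the promoters are shown because motifs of interferon and STAT6 type can be looked up in them. RefSeq windows on GRCh38.p14, which run from 250 bases before to 50 bases after each start, matched 7 of the 9 genes. B2M is shown at chr15:44711347-44711496 on the plus strand, and TAP1, TAP2 and TAPBP at chr6:32853725-32853874, chr6:32838760-32838909 and chr6:33314049-33314198 on the minus strand. HLA-F is shown at chr6:29723264-29723413 on the plus strand, and HLA-C and HLA-B at chr6:31272113-31272262 and chr6:31357200-31357349 on the minus strand. Each is written 5′ to 3′ on the strand of the gene, and capitals mark GAAANNGAAA, an interferon response type motif, or TTCNNNNGAA, a STAT6 type motif, on either strand. The HLA-B stretch holds no exact match to either motif.
B2M: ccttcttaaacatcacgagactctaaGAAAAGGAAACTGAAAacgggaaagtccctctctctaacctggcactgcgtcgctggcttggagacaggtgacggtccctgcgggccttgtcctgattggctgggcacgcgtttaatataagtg
TAP1: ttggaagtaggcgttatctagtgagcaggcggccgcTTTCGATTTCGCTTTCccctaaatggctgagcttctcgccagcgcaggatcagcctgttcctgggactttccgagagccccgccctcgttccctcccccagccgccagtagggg
TAP2: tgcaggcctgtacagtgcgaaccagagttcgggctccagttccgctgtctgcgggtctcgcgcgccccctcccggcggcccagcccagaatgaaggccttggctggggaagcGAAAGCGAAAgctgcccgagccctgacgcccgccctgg
TAPBP: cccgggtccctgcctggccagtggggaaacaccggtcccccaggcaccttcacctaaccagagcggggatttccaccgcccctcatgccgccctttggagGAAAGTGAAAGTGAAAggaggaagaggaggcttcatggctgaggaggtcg
HLA-F: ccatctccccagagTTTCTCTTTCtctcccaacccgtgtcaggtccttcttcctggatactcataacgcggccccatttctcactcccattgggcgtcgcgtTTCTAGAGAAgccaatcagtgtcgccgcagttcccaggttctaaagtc
HLA-C: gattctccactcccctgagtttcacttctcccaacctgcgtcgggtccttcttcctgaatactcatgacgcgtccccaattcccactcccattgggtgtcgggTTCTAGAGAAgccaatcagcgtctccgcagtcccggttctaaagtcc
HLA-B: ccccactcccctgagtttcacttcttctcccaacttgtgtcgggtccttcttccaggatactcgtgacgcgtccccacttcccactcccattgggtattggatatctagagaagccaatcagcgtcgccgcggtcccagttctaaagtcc

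The interferon response type motif GAAANNGAAA occurred in the windows of B2M, TAP1, TAP2, TAPBP and HLA-F, which is 5 of 7 genes, or 5 of 8 windows with a second TAP1 window that lacks it, against 3.57% of the 34796 promoter windows of the table. In B2M, TAP1 and TAPBP it occurred as 2 overlapping copies, seen above as the longer capitals, and in TAP2 and HLA-F as 1 copy. The STAT6 type motif TTCNNNNGAA occurred in HLA-F and HLA-C, against 6.43% of all windows. At the aligned place HLA-B reads atctagagaa, which differs from the TTCTAGAGAA of HLA-F and HLA-C in its first letter only. Its 300-base window was 88.5% identical to that of HLA-C and 79.7% identical to that of HLA-F. Only exact matches were searched, so near matches of either motif were not counted. The matches are of letters in a reference sequence and no binding was measured.

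In hg19, the build of the files, 7 of the 9 genes lie in the MHC region of chromosome 6. HLA-F (chr6:29691117-29695073) and HLA-E (chr6:30457183-30461982) are on the plus strand. HLA-C (chr6:31236526-31239913), HLA-B (chr6:31321649-31324989), TAP2 (chr6:32793187-32806547), TAP1 (chr6:32812986-32821748) and TAPBP (chr6:33271410-33282164) are on the minus strand. B2M lies at chr15:45003685-45010357 and NLRC5 at chr16:57050986-57117436, both on the plus strand. All values are for whole genes, so no exon or UTR was measured separately.

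Levels in the cells spanned a wide range. B2M was the most abundant of the 9, at rank 39 of all genes by mean RPKM, and HLA-B followed at rank 305. HLA-C and HLA-E ranked 941 and 1003, TAP1 3280, TAPBP 3948, HLA-F 4519, TAP2 5735 and NLRC5 8188. Because RPKM is scaled to gene length, the levels can be set beside each other. Over the 6 libraries B2M ranged between 927 and 1546 RPKM and HLA-B between 174 and 227 RPKM, and neither range met that of any other gene here. HLA-C (63.9 to 98.6 RPKM) and HLA-E (57.4 to 109.7 RPKM) overlapped. Library by library HLA-C was the higher except in the 24 hr control, where it had 96.4 RPKM against 109.7 RPKM for HLA-E. The ranges of TAP1 (18.8 to 36.4 RPKM), TAPBP (14.6 to 33.7 RPKM) and HLA-F (13.8 to 21.6 RPKM) also overlapped. Within each of the 6 libraries, however, TAP1 was above TAPBP and HLA-F. TAPBP and HLA-F changed order between libraries, and both also overlapped TAP2 (10.16 to 16.2 RPKM). NLRC5 lay lowest, between 5.27 and 8.54 RPKM. The HLA genes are close paralogs that differ between people, and how reads matching several of them were counted is not given in the sources used here, so the levels of single HLA genes are uncertain.

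**Figure D1:**
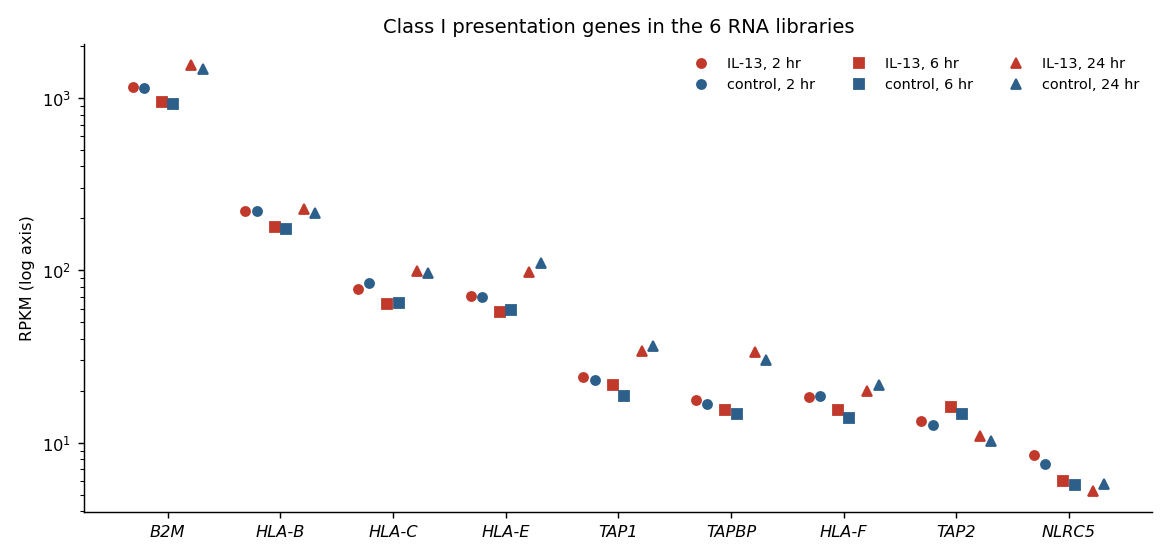
RPKM of the 9 genes (log axis) in each of the 6 RNA libraries, with IL-13 and control points at 2, 6 and 24 hr and 1 library per point. At every time the IL-13 point lies close to its control point, while the genes spread between 5.27 RPKM (NLRC5) and 1546 RPKM (B2M).

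The first comparison asked what IL-13 did to these genes at each time. IL-13 and control libraries had nearly the same levels of all 9 genes. Across the 27 pairs of values, 9 genes at 3 times, the ratio of IL-13 over control lay between 0.888 (HLA-E at 24 hr) and 1.14 (TAP1 at 6 hr). Of the 27, 21 lay within 1.1-fold of 1, and the share of all genes within it was not counted. Genes that reached 1 RPKM had a median log2 ratio of 0.08, 0.08 and 0.13 in size at 2, 6 and 24 hr. Such closeness is thus not particular to the 9 genes.

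Among the heavy chains, HLA-B, which presents peptides to CD8 T cells, had 219.9, 178 and 227 RPKM with IL-13 at 2, 6 and 24 hr, against 221, 174 and 216 RPKM in controls. HLA-C, which also serves as a ligand of killer cell receptors, had 77.8, 63.9 and 98.6 RPKM with IL-13, against 84.0, 64.8 and 96.4 RPKM in controls. In both genes the times differed more than the treatments. HLA-E, which displays leader peptides of other class I chains to the receptor NKG2A, had 70.9, 57.4 and 97.3 RPKM with IL-13, against 70.5, 59.0 and 109.7 RPKM in controls. HLA-F, a nonclassical heavy chain, had 18.3, 15.4 and 19.8 RPKM with IL-13, against 18.7, 13.8 and 21.6 RPKM in controls. HLA-E was lowest relative to its control at 24 hr, and HLA-F lay on either side of its control depending on the time.

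B2M, the light chain common to all class I molecules, had 1151, 948 and 1546 RPKM with IL-13, against 1137, 927 and 1465 RPKM in controls. It was slightly above control at each time, by ratios of 1.01, 1.02 and 1.06.

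The transporter subunit TAP1 had 24.1, 21.5 and 34.2 RPKM with IL-13, against 23.1, 18.8 and 36.4 RPKM in controls. Its partner TAP2 had 13.3, 16.2 and 10.9 RPKM with IL-13, against 12.6, 14.7 and 10.16 RPKM in controls. Both subunits were higher with IL-13 at 6 hr, by ratios of 1.14 and 1.11, and at 24 hr TAP1 was below its control while TAP2 was above it. TAPBP had 17.6, 15.4 and 33.7 RPKM with IL-13, against 16.7, 14.6 and 30.3 RPKM in controls, with ratios of 1.06, 1.06 and 1.11. NLRC5, the activator that binds class I promoters, had 8.54, 5.98 and 5.27 RPKM with IL-13, against 7.56, 5.68 and 5.76 RPKM in controls, so that its ratio was 1.13 at 2 hr and 0.916 at 24 hr.

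**Figure D2:**
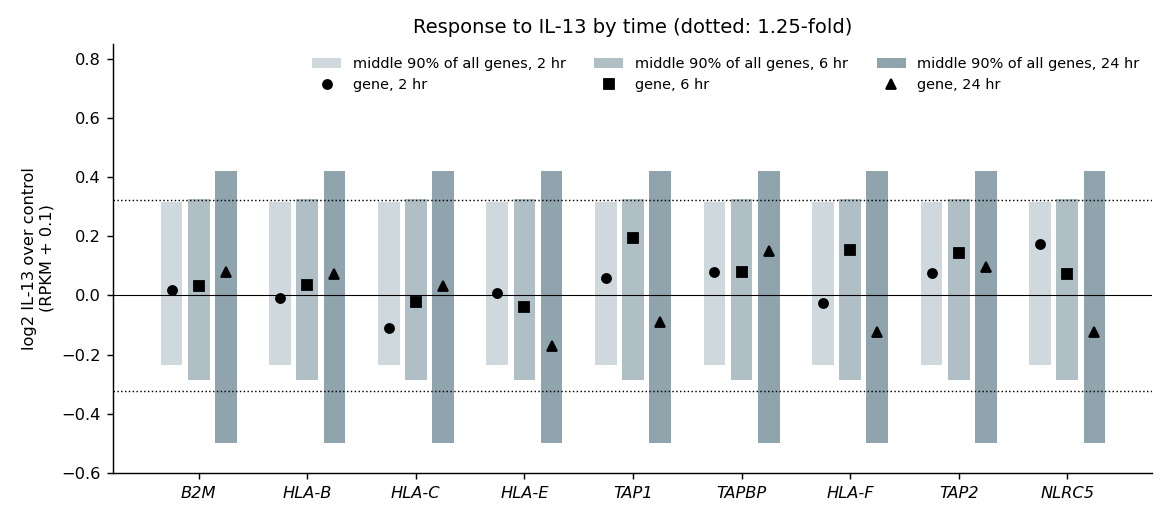
Log2 ratio of IL-13 over control on the log2(RPKM + 0.1) scale for each of the 9 genes at 2, 6 and 24 hr, 1 pair of libraries per point, with bars for the middle 90% of all genes at that time and dotted lines at 25% above and 20% below control. Every point lies inside the dotted lines and inside its bar.

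With 1 library per group no single time has a replicate check, so sizes were counted by rule on the log2(RPKM + 0.1) scale, which understates the differences of low genes. A gene counted as higher when it was at least 25% above control and as lower when it was at least 20% below, which is the same fold. None of the 9 was higher or lower by that rule at any time. By the same rule 4.73%, 5.18% and 8.42% of the genes that reached an RPKM of 1 were higher with IL-13 at 2, 6 and 24 hr, and 2.92%, 4.12% and 9.47% were lower. None of the 9 was 2-fold different, against 1%, 1.07% and 2.16% of those genes. With so few genes past these sizes, 0 of 9 is near the background and is no result about the class I genes. The median size of the log2 ratio, without its sign, was 0.06, 0.07 and 0.10 for the 9 genes at 2, 6 and 24 hr, against 0.08, 0.08 and 0.13 for all genes. All 9 lie above 5 RPKM, and genes of at least 5 RPKM had 0.068, 0.068 and 0.117, so that at 6 hr the 9 genes (0.073) lay slightly above them. The signed medians were 0.02, 0.07 and 0.03, against 0.00, -0.00 and 0.02. B2M, TAP2 and TAPBP were above control at all 3 times, which is 3 of 9 against 23.1% of all genes tested. With 9 genes this is near the background and is no result about them. None of the 9 was below control at all 3, and the share of all genes below was not counted.

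The 3 times were then used as repeats of the treatment in limma, with time and treatment as terms, so that the error is the spread over times. The controls at 2 and 6 hr share 359 identical values above 0, as a read set entering both would give. By the steps of their low values both also held a read set of 15.7 megareads. Because of this the 3 times are not fully independent repeats, and the errors and p-values treat them as if they were. The same controls stand in the comparisons with IL-13 at 2 and 6 hr above, and the effect there was not tested. None of the 9 genes passed an adjusted p of 0.05, and neither did any of the 11953 genes tested (0%). At an unadjusted p under 0.05, 0 of the 9 stood beside 16.9% of all genes, and in limma with other settings up to 7 genes passed the adjusted threshold, none of them among the 9. With no minimum RPKM, TAP2 and TAPBP had unadjusted limma p of 0.0195 and 0.0304, beside 10.8% of all genes under 0.05. TAP2 had the largest fitted log2 ratio, 0.11 ± 0.04 (SE, 3 times), with a 95% interval of 0.990- to 1.17-fold and an adjusted p of 0.339 in limma. TAPBP followed with 0.10 ± 0.04, an interval of 0.986- to 1.17-fold and a limma adjusted p of 0.354. HLA-E had the lowest fitted value, -0.07 ± 0.06, with an interval of 0.859- to 1.06-fold and a limma adjusted p of 0.588. Without the 24 hr pair it was -0.0149, and HLA-C was then lowest at -0.0655. The other 6 lay between -0.03 (HLA-C) and 0.05 (TAP1), with limma adjusted p between 0.661 and 0.992. Among all 9 the bounds of these intervals ran between 0.859 (HLA-E) and 1.19 (TAP1), the range of shared effects that the fit leaves possible. In the authors' deposited table all 9 genes had an adjusted p of 1 at each time. The authors' values rest on 1 library per group at each time, so they measure no spread between replicates. The labels do not say whether separate cultures were used, so the limma p-values measure the spread between libraries only.

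The second comparison set the times beside each other within each treatment. Most class I genes were higher at 24 hr than at 6 hr, with IL-13 and in controls alike, while TAP2 was lower. At least 25% higher at 24 than at 6 hr were 7 of 9 genes in IL-13 libraries and 6 of 9 in controls, against 43.3% and 44.6% of all genes. TAPBP differed most, with a ratio of 24 over 6 hr of 2.19 with IL-13 and 2.08 in controls, and was the only one of the 9 past 2-fold, against 14.9% and 16.2% of all genes. The ratio of 24 over 6 hr was 1.59 with IL-13 and 1.94 in controls for TAP1, and 1.70 and 1.86 for HLA-E. For B2M it was 1.63 with IL-13 and 1.58 in controls, and for HLA-C 1.54 and 1.49. HLA-F had 1.29 with IL-13 and 1.56 in controls, and HLA-B, just inside and just outside the 25% rule, had 1.27 and 1.24.

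TAP2 went the other way from its partner TAP1. Its ratio of 24 over 6 hr was 0.671 with IL-13 and 0.693 in controls, and it alone of the 9 was at least 20% lower in each treatment, against 21.1% and 22.3% of all genes. NLRC5 had a ratio of 0.882 with IL-13 and 1.01 in controls, so it did not share the higher level of the genes it is known to activate.

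All genes together were also higher at 24 hr, with a median log2 shift of 0.21 in IL-13 libraries and 0.23 in controls. Relative to that shift, HLA-C, HLA-E, B2M, TAP1 and TAPBP remained at least 25% higher in IL-13 libraries and these 5 with HLA-F in controls, against 32.3% and 33.3% of all genes, while TAPBP was no longer past 2-fold. Relative to it NLRC5 joined TAP2 as at least 20% lower in IL-13 libraries, against 31.4% of all genes. The steps of low RPKM values fitted 1 read set in each 24 hr library and the mean of 2 in each of the others. No label states this, and time and such a difference in sequencing cannot be told apart.

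Between 2 and 6 hr the direction was mostly the reverse. NLRC5 was at least 20% lower at 6 than at 2 hr in both treatments, with a ratio of 0.701 with IL-13 and 0.751 in controls. It was the only one of the 9 in IL-13 libraries, against 13.3% of all genes, and HLA-B, HLA-C and HLA-F were lower beside it in controls, against 11.2%. Relative to the median log2 shift of all genes, 0.09 with IL-13 and 0.10 in controls, 6 of the 9 with IL-13 and 7 in controls were at least 20% lower, against 17.6% and 15.5% of all genes. The log2 difference of 6 over 2 hr lay between -0.51 (NLRC5) and -0.16 (TAP1) for 8 of the 9 genes with IL-13 and between -0.43 (HLA-F) and -0.19 (TAPBP) in controls. TAP2 alone was higher at 6 hr, by 0.28 with IL-13 and 0.21 in controls on the log2 scale. These controls are the libraries with shared values, so they are not independent of each other.

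**Figure D3:**
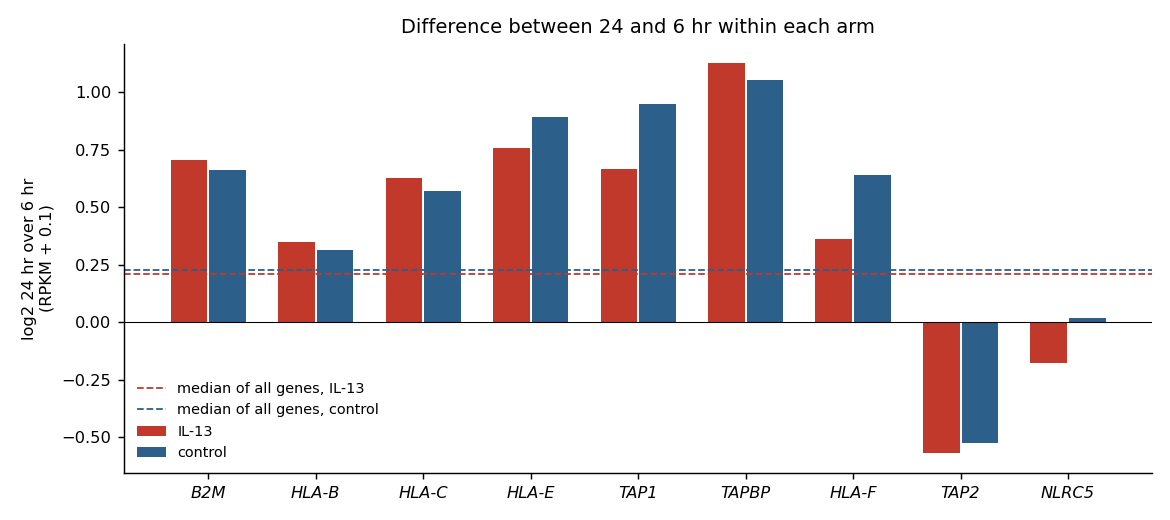
Log2 ratio of 24 over 6 hr on the log2(RPKM + 0.1) scale for each of the 9 genes, with an IL-13 and a control bar (1 pair of libraries each) and dashed lines at the median of all genes (0.21 with IL-13 and 0.23 in controls). TAPBP is highest at 1.13 with IL-13 and 1.05 in controls, and TAP2 is lowest at -0.57 and -0.52.

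As a description over the 6 libraries, the standardised profiles of 7 of the genes followed the mean profile of the 9, with Pearson correlations between 0.86 (TAPBP) and 0.98 (HLA-F). NLRC5 stood apart at 0.04, and TAP2 ran opposite at -0.92. Each of the 9 genes is itself part of that mean, so high correlations with it are partly built in. Of 11186 other genes, 665 had a correlation over 0.9 with the mean profile, and the 5 highest were ZNF644, TPST1, DSCR6, SPAG9 and ZNF24, between 0.994 and 0.997. For NLRC5 the 3 highest were DNAJB6, C6orf141 and IER3, between 0.987 and 0.988. The 6 points share treatment times, and the controls at 2 and 6 hr share values.

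Genes around the class I pathway were described from lists by role. Peptides come from the proteasome, and interferon swaps in the immunoproteasome subunits PSMB8, PSMB9 and PSMB10 and the PA28 activator. Of 6 genes of peptide supply, PSMB9 at 6 hr was the only one past the rule of 25% higher or 20% lower with IL-13 at any time. Of all genes 5.18% were at least 25% higher at 6 hr. PSMB9 had 7.92, 6.49 and 13.8 RPKM with IL-13 at 2, 6 and 24 hr, against 7.23, 4.28 and 12.0 RPKM in controls, with ratios of 1.096, 1.52 and 1.15. In limma over the 3 times it had an adjusted p of 0.282. It lies beside TAP1 in the MHC region and starts from the same stretch in the opposite direction. TAP1 had ratios of 1.04, 1.14 and 0.940, so the 2 genes lay on opposite sides of control at 24 hr. A shared response was not tested. PSME1, an activator subunit, had the lowest signed mean log2 ratio of this list, 0.04, with 196, 186 and 342 RPKM with IL-13 against 206, 184 and 305 RPKM in controls. None of the 3 constitutive subunits PSMB5, PSMB6 and PSMB7 was past it.

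In peptide trimming and loading, 2 of 7 genes were past the same rule, 1 higher and 1 lower, both at 24 hr. Of all genes 8.42% were higher and 9.47% lower at that time. The count is thus near the background and is no result about this list. ERAP2, an aminopeptidase that trims peptides in the endoplasmic reticulum, was higher at a low level, with 1.36 RPKM with IL-13 against 0.996 RPKM in the control. It reached 1 RPKM with IL-13 only, so the minimum level set its direction. CALR, the chaperone calreticulin, was lower at 24 hr, with 127 RPKM with IL-13 against 177 RPKM in the control, a ratio of 0.718. At 2 and 6 hr CALR had 234 and 301 RPKM with IL-13, against 244 and 302 RPKM in controls. In the authors' deposited table the adjusted p of CALR at 24 hr was 0.903.

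Among 8 class I-like genes, which include stress ligands of the killer cell receptor NKG2D, 4 were at least 20% lower with IL-13 at 24 hr, against 9.47% of all genes, and none was higher at any time by the rule. ULBP3, a NKG2D ligand, had 8.62, 7.64 and 6.11 RPKM with IL-13, against 9.25, 9.71 and 12.2 RPKM in controls. Its distance to the control grew with time, with ratios of 0.931, 0.786 and 0.4996, and its adjusted p at 24 hr was 0.653 in the authors' deposited table. The others at 24 hr were the NKG2D ligands MICB, with 0.632 RPKM with IL-13 against 1.04 RPKM, and ULBP2, with 16.7 RPKM against 22.2 RPKM. MICB reached 1 RPKM in the control only, so the minimum level set its direction. MR1, which presents microbial metabolites to MAIT cells, had 5.08 RPKM with IL-13 against 6.40 RPKM in the control. ULBP1 had the highest signed mean log2 ratio of the list, 0.03. Its levels were 3.77, 2.24 and 12.4 RPKM with IL-13 against 4.51, 2.19 and 9.95 RPKM in controls. At 24 hr the plain ratio of ULBP1 was 1.2505. On the log2(RPKM + 0.1) scale it had 0.3196 at that time and lay just short of counting as higher. Thus not all NKG2D ligands were lower.

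Among 18 regulators, IRF1 was the only one past the 25% rule, at 2 and 6 hr, against 4.73% and 5.18% of all genes. IRF1, an interferon-induced activator of class I genes, had 13.4, 17.3 and 20.03 RPKM with IL-13, against 7.20, 9.14 and 16.4 RPKM in controls, with ratios of 1.86, 1.89 and 1.22. Its adjusted p was 0.000266 at 6 hr and 1 at 2 and 24 hr in the authors' deposited table, whereas the limma fit over the 3 times gave a log2 ratio of 0.69 ± 0.15 (SE) and an adjusted p of 0.200. The authors' p-values rest on 1 IL-13 and 1 control library at each time, so they measure no spread between replicates. At 2 and 6 hr IRF1 differed by far more than the 9 class I genes, whose ratios there lay between 0.927 and 1.14. IFNGR2, a chain of the interferon gamma receptor, lay lowest of the list, with 33.9, 29.99 and 36.4 RPKM with IL-13 against 37.8, 33.7 and 41.8 RPKM in controls. Between times, 12 of 18 regulators with IL-13 and 13 of 18 in controls were at least 25% higher at 24 than at 6 hr, against 43.3% and 44.6% of all genes. Among them were STAT2, with ratios of 7.94 with IL-13 and 6.39 in controls, and RFX5, a subunit of the complex that tethers NLRC5 to promoters, with 3.84 and 3.31.

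**Figure D4:**
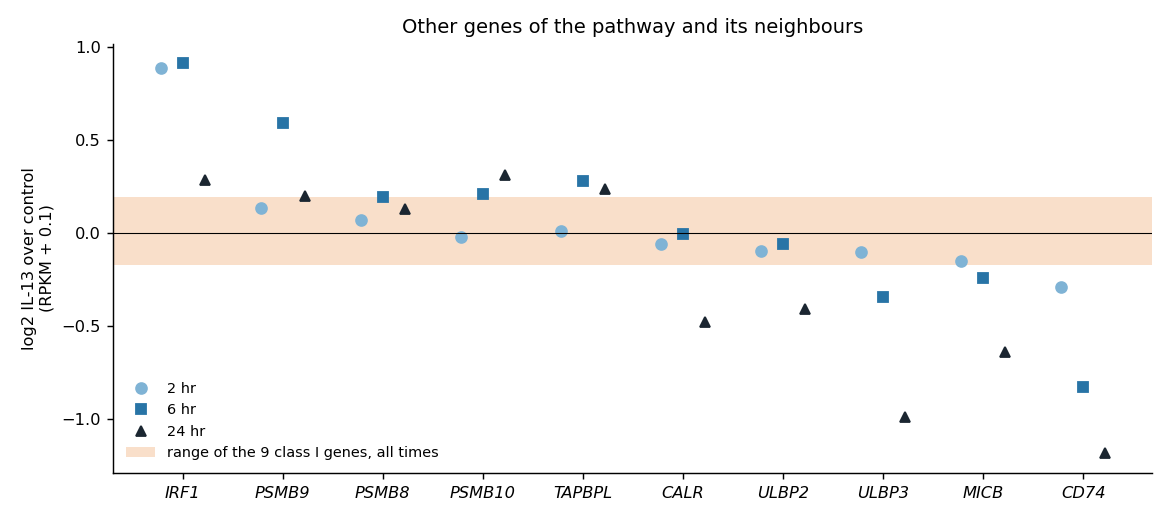
Log2 ratio of IL-13 over control on the log2(RPKM + 0.1) scale at 2, 6 and 24 hr for 10 related genes picked after their values were seen, 1 pair of libraries per point, with a band for the range of the 9 class I genes over all times. IRF1 lies far above the band at 2 and 6 hr (0.88 and 0.91), and ULBP3 (-0.99) and CD74 (-1.19) lie far below it at 24 hr. At 24 hr CD74 reached 1 RPKM in the control only.

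MHC class II genes, which serve antigen presentation to CD4 T cells, had low levels, and only CD74 and HLA-DRA of 8 reached an RPKM of 1 in any library. CD74, the class II invariant chain, had 1.55, 0.968 and 0.408 RPKM with IL-13, against 1.92, 1.80 and 1.05 RPKM in controls, and was past 2-fold with IL-13 at 24 hr on the log2(RPKM + 0.1) scale. ULBP3, at a plain ratio of 0.4996, lay just short of 2-fold on that scale (-0.99), and no other gene of these lists with an RPKM of at least 1 reached it. By the 20% rule CD74 was lower at 6 and 24 hr, against 4.12% and 9.47% of all genes, and HLA-DRA at 2 hr, against 2.92%. In these comparisons both genes reached 1 RPKM in the control only, so the minimum level set their direction. In limma over the 3 times CD74 had an adjusted p of 0.206. HLA-DRA had 0.659, 0.546 and 0.167 RPKM with IL-13, against 1.02, 0.944 and 0.172 RPKM in controls. In these bulk samples fewer cells with class II RNA and less of it per cell cannot be told apart.

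The library checks were as follows. Read sets held 13.0 to 26.9 megareads as estimated from the steps of low values, and at 24 hr B2M had 21683 reads per kilobase with IL-13 and 19878 in the control, NLRC5 73.9 and 78.1. All 7 epithelial markers were expressed, with summed levels of 2564 RPKM with IL-13 and 3714 RPKM in the control at 24 hr, and 3307 to 3408 RPKM in the other 4 libraries. At 24 hr the ratio of IL-13 over control was 0.476 for KRT14, 0.601 for KRT5 and 0.713 for KRT8, against 0.917 for CDH1, 0.992 for TP63, 1.05 for KRT18 and 1.12 for EPCAM, and the part of this in the results at 24 hr was not tested. None of 7 leukocyte markers reached an RPKM of 1, and their sum lay between 0.115 and 0.719 RPKM. Of 6 fibroblast and 3 endothelial markers, 2 and 1 reached an RPKM of 1, with sums of 2.26 to 4.49 and 0.787 to 4.27 RPKM. The sum of 7 brain genes was 22.3 RPKM in the control at 2 hr against 6.15 to 7.37 RPKM in the other 5 libraries, and its part in the results at 2 hr was not tested.

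The third comparison concerned the histone marks at the starts of the genes after 6 hr. Neither headers nor labels say which library of a mark received IL-13, so the libraries are called library 1 and library 2, no direction of treatment is given, and directions cannot be compared across marks. M is the authors' rescaled log2 ratio of library 1 over library 2, and the level, in rescaled reads per peak, was computed from M and their mean log2 level. Peaks of all 3 marks lay at the starts of 8 of the 9 genes, and no peak at the NLRC5 start was analysed here.

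In H3K4me3, which marks promoters, 3 of the 7 peaks that reached a level of 30 were at least 2-fold apart, against 10.8% of all such peaks. The B2M peak, stronger than 99.5% of peaks, had levels of 309.8 in library 1 and 124.9 in library 2 (M 1.31). TAPBP had 59.7 and 29.4 in libraries 1 and 2 (M 1.02), and HLA-C was higher in library 2, with 23.3 and 47.2 (M -1.02). The peaks thus lay on both sides. TAP1 had an M of -0.69, TAP2 0.79, HLA-F 0.47 and HLA-E 0.14, and HLA-B had -0.74 under the level of 30. A weaker peak also listed at the TAP1 start had an M of -1.08 at a level of 35.0. With all listed peaks counted, 4 were 2-fold apart. A weaker peak at the TAP2 start had an M of -1.47 under the level of 30. The middle 90% of M over all peaks ran between -0.98 and 1.07, so that TAPBP and HLA-C lay near its edges.

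In H3K9Ac none of 8 peaks was 2-fold apart, against 7.39% of peaks. TAP2 had the largest M, 0.65, with levels of 195 in library 1 and 124 in library 2, and TAP1 the smallest, -0.54, with 156 and 228. The B2M peak had 293 and 325 (M -0.15), a smaller distance than in H3K4me3. HLA-E, HLA-F and TAPBP were nearly equal between the libraries (M 0.06, -0.04 and 0.03). HLA-B and HLA-C had M of -0.33 and -0.20.

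In H3K27Ac 1 of 8 peaks was 2-fold apart, against 8.75% of peaks, and it was that of HLA-F, with levels of 32.1 in library 1 and 11.0 in library 2 (M 1.55). HLA-C and HLA-B had M of 0.82 and 0.73, and HLA-E had 0.35. All 4 heavy chain genes were thus on the side of library 1 in this mark. The other genes were on the side of library 2, with M of -0.35 (TAPBP), -0.25 (TAP1), -0.17 (B2M) and -0.11 (TAP2). All peaks of this mark had a median M of 0.08, and most lay between -0.85 and 1. Only HLA-F lay outside that range. The share of all peaks on the side of library 1 was not counted. The heavy chain genes are close paralogs, and whether their peaks are independent was not tested. The split is therefore no result about the class I genes. Levels at HLA-F, HLA-B and HLA-C were low, at most 32.1, 46.4 and 49.5, where few reads stand behind the ratio.

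A peak listed at one start may belong to a neighbour. The TAP1 peak had the same values as the one at the PSMB9 start, the TAP2 peak the same as at PSMB8, and the TAPBP peak in H3K4me3 and H3K9Ac the same as at ZBTB22. With 1 library per mark and treatment, these ratios have no replicate check.

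**Figure D5:**
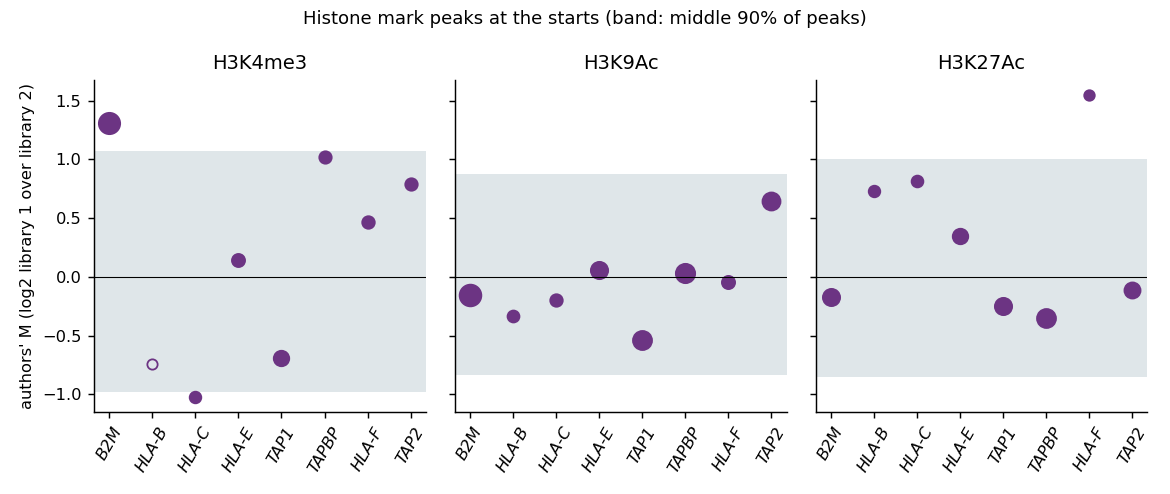
Authors' M (log2 of library 1 over library 2) of the peak at the start of 8 class I genes in H3K4me3, H3K9Ac and H3K27Ac at 6 hr, 1 pair of libraries per point, with larger points for higher levels, an open point for a level under 30 and a band for the middle 90% of all peaks. B2M and HLA-C in H3K4me3 and HLA-F in H3K27Ac lie outside the band.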

How the data were processed

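Per the file headers, the authors deposited RPKM values of 6 RNA libraries beside their own log2 ratio and p-values. The build was hg19 (GRCh37), and the submitters' processing notes list DESeq and TopHat2 2.0.9 for the RNA. The submitters' processing notes for the ChIP libraries list MACS2 2.0.10.20130712, DESeq and Bowtie 1.0.0. Neither the way of counting nor the annotation release is given in the sources used here. Of each mark the authors deposited peaks with a log2 ratio (M), a mean log2 level (A) and a −log10 p-value, per the file headers. Another 6 columns of raw reads were not used, since neither headers nor labels map them to samples. The input DNA was not used. Some items are not reported here.

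Ratios are IL-13 over control on log2(RPKM + 0.1), and folds of single genes are plain RPKM ratios. The size rules were 25% higher or 20% lower, and 2-fold, on that scale, and the higher library had to reach 1 RPKM. limma 3.58.1 in R 4.3.3 tested the treatment term beside time over the 11953 genes that reached 1 RPKM in 3 or more libraries, with Benjamini-Hochberg adjustment, after a test on simulated data. Peaks counted as apart when M was at least 1 in size at a level of at least 30. Where several peaks lay at a gene's start, the one with the highest level was taken. A peak listed at several starts within 20 kb with identical values was counted once. Depth came from the steps of low values in each library (within 0.5%). Python 3.11.15, NumPy 2.4.6, pandas 2.3.3, matplotlib 3.10.9 and Biopython 1.88 were used.

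The 9 genes, the lists and the motifs were chosen with earlier results of these data known. Of each list, the genes with the largest and smallest mean ratio and any past 2-fold were to be named. PSMB9 aside, further genes past the 25% rule, STAT2, RFX5 and the genes plotted beside the lists were named after their values were seen. The 25% rule between times was added after seeing the data.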

Additional observations from a re-analysis of the deposited data

How the results depend on the processing

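The alternatives were pseudocounts of 1 and 0.01, no minimum RPKM or one of 5, centring on the median of all genes, limma-trend, leaving out each time, and other peak thresholds. They kept 114 of 124 comparable counts within 1.5 times, but most of these were counts of 0 that stayed 0. No class I gene passed the rule of 25% higher or 20% lower with IL-13 or the adjusted threshold of limma in any of them. Centring moved the counts between times. At least 20% lower at 6 than at 2 hr were then 6 genes with IL-13 and 7 in controls, against 1 and 4 without it. At 24 over 6 hr, 2 genes were then lower with IL-13 against 1, and 0 in either treatment were past 2-fold against 1 in each. For peaks, a level of 100 left 1 of 3 in H3K4me3 and 0 of 1 in H3K27Ac. An M of 0.5 gave 5 in H3K4me3, 2 in H3K9Ac against 0, and 3 in H3K27Ac, beside 39.3%, 26.9% and 28.3% of all peaks. Of the fitted log2 ratios, that of HLA-F was -0.0262 after centring. Leaving out 1 time moved HLA-C between -0.0655 and 0.0051, HLA-F between -0.0749 and 0.0648, TAP1 between -0.0152 and 0.127, and NLRC5 between -0.0257 and 0.123, so their sign is not settled. The cause was not tested. The fit pairs IL-13 and control libraries by time. No paired analysis was possible because the labels give no replicate numbers, other than that pairing by time. With 1 library per group, differences smaller than the spread of unmeasured replicates cannot be seen.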
